A study of Mus musculus with 16 samples.

Results

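Cytosolic ribosomal protein (RP) genes encode the protein parts of the ribosome that translates nuclear mRNA. Members were taken by symbol, as Rpl or Rps followed by a number with its suffix letters, plus Rpsa and Rplp0 to Rplp2, which gave 82 genes of the 23467 genes listed in the count tables, 50 of the large and 32 of the small subunit. They were followed in single cells of tumours from 2 mouse models of BRCA1-deficient, triple-negative mammary cancer. In WB1P mice (WapCre;Brca1F/F;Trp53F/F) a Cre driven by the whey acidic protein promoter, active in mammary epithelium, deletes Brca1 and Trp53. WB1P-Myc mice carry the same 3 alleles and, in addition, Cre-activated Myc at the Col1a1 locus (Col1a1-invCAG-Myc-IRES-Luc), so both groups share the loss of Brca1 and Trp53 in Cre-active cells, and host stromal cells keep these genes where Cre was not active. End-stage mammary tumours were digested, live singlets were sorted, and the cells of each model were encapsulated with barcoded beads (Drop-seq, which counts 3′ mRNA tags by unique molecular identifier, UMI) in 4 droplet fractions. The 4 fractions are technical repeats of 1 suspension per model, the labels do not tie them to animals, and the droplets of each model were made apart, so droplet preparation and model cannot be told apart and no test between models was possible. The study describes a pair of mice per model, and which mouse a cell came from is not known here. Spread is given as the SD over fractions.

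A ribosome holds a single copy of nearly every RP, and vertebrate RP mRNAs are translated under common control through a run of pyrimidines at their 5′ end (the TOP motif). RP transcripts are among the most abundant in growing cells, and RP and ribosome assembly genes are known targets of Myc in many tissues. Some members also have roles of their own: Rpl5 and Rpl11 bind the Trp53 inhibitor Mdm2 together with 5S rRNA, Rplp0, Rplp1 and Rplp2 form the stalk that recruits elongation factors, and Rps6 is the substrate of S6 kinases.

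After the filters on genes and mitochondrial UMIs, 4798 cells of 8000 listed barcodes remained, 1307 from WB1P and 3491 from WB1P-Myc tumours. The libraries held 256985 to 1918672 UMIs for WB1P and 3814562 to 4960334 for WB1P-Myc. WB1P fraction 1 stood apart, with 65 cells and a median of 887 UMIs per cell, and 1 barcode occurred in more than 1 library. Over all cells kept, Myc, the targeted gene, was at 31.8, 63.5, 80.6 and 69.9 CPM (counts in 1e6 UMIs) in the WB1P fractions and at 152, 152, 122 and 129 CPM in the WB1P-Myc fractions. In the construct Myc is followed by IRES-Luc, so 3′ tags of its transcript need not fall on Myc. These Myc counts therefore do not separate the transgene from endogenous Myc. Brca1 (3.88 and 12.98 CPM) and Trp53 (21.8 and 26.04 CPM) are floxed in both models and are read at their 3′ ends, so these values do not check the deletions. Clusters made without the RP genes were named from marker lists. Cells with epithelial markers formed 1 cluster in each model. Cluster 1 held 657 of the 658 epithelial-like WB1P cells, and cluster 6 held 882 of the 892 from WB1P-Myc. The markers Krt8, Krt19, Cdh1, Cldn7 and Ehf led in both clusters. Epcam, Krt7, Krt18, Cldn3, Cldn4 and Elf3 led in cluster 1 but not in cluster 6, and Krt14, Krt17 and Cd24a in cluster 6 but not in cluster 1. Cluster 6 had no epithelial marker among its 10 leading genes. Clusters 5 and 7 are called Schwann-like because Sox10, S100b and Erbb3 led in both. They were nearly all from WB1P-Myc (1557 cells against 16), and the leading genes of cluster 5 were cartilage matrix genes (Col2a1, Acan, Col11a1) rather than Schwann markers. Names were rebuilt from these counts. The singlet sort came before encapsulation, so cells caught together in a droplet were limited only by the upper limit on genes per barcode, without a doublet caller.

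The TOP motif lies at the first bases of an mRNA, so the bases around the annotated starts are shown for members at the ends of the epithelial-like comparison described further on and for a paralog, 10 bases before the start and 15 from it, from RefSeq on the mm10 build (GRCm38.p6). Capitals mark a C followed by at least 4 pyrimidines that begins within 5 bases of the start, searched on the transcribed strand. The gene spans of Rpl38 and Rpl19 given further on begin upstream of the starts shown, so other annotated starts may exist.
Rps27, chr3:90213634-90213658 (minus strand): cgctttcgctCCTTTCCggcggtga
Rpl38, chr11:114668570-114668594 (plus strand): aagcctcgttCTTTCCCCgttctct
Rps26, chr10:128626492-128626516 (minus strand): gcaagccgccggatCCTCTTTCgag
Rpl22l1, chr3:28805498-28805522 (plus strand): gcgcaagcccgttCTCTTCCCacgg
Rpl19, the downstream of 2 listed starts, chr11:98026914-98026938 (plus strand): tctccCCTTCgcagataatgggcgg
Rpl27, without such a run, chr11:101442235-101442259 (plus strand): ctgttcctgtctgctgctcgtgctg
Rpl24, without such a run, chr16:55966265-55966289 (plus strand): gctgttgctaggaaacagactgggc
In Rpl23, which also has no run, capitals mark the E-box CACGTG, a motif bound by Myc-Max dimers and its own reverse complement, chr11:97782425-97782449 (minus strand): gtccggtCACGTGgctgagtgggcg

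Of the 82 members, 61 had a promoter sequence in the RefSeq table used. A pyrimidine run at the start was found in 29 of the 61 (47.5%), against 21.2% of the 27025 genes with a sequence and 23.9% of the 8754 expressed ones. The E-box was found anywhere in the 300 bases around the start in 6 of the 61 (9.84%), against 8.09% of all and 12.1% of expressed genes. Runs at the start therefore marked the group, and E-boxes in this window occurred at about the share of other genes. In epithelial-like cells, the median log2 ratio of WB1P-Myc over WB1P was 0.38 for the 29 tested members with a run and 0.70 for the 30 without, and 0.59 for the 6 with an E-box and 0.48 for the 53 without. A match is a description of letters in this window, not a binding site.

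RP transcripts took 2768652 of the 15290573 UMIs in the cells kept. In all cells together the RP share of UMIs was 13.3% in WB1P (13.5 ± 0.878%, SD, n = 4 fractions) and 19.5% in WB1P-Myc (19.5 ± 0.938%, n = 4), a log2 ratio of 0.55. The exact 95% interval of a pooled share covers counting error only and was narrow throughout, 13.27 to 13.34% for WB1P. This pooled ratio mixes cell classes: with 4 classes given the same weight in both models it was 0.25, so the classes are described separately. Among single genes, 40 of 81 members were higher in WB1P-Myc and 0 lower by the call defined for tumour cells further on, where 17.1% of all genes were higher and 10.1% lower.

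In epithelial-like cells the RP share was 14.6, 16.2, 15.6 and 14.7% in the 4 WB1P fractions and 21.7, 21.4, 23.1 and 23.5% in the 4 WB1P-Myc fractions. All WB1P-Myc fractions lay above all WB1P fractions. The pooled shares were 15.5% and 22.4%, which is 6.92 percentage points or 1.45-fold apart (log2 ratio 0.53, 95% counting interval 0.527 to 0.539), with fraction means of 15.3 ± 0.779% and 22.5 ± 1.03% (SD, n = 4). The large and small subunits kept a like balance, with 1.38 large-subunit UMIs per small-subunit UMI in WB1P and 1.43 in WB1P-Myc.

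**Figure D1:**
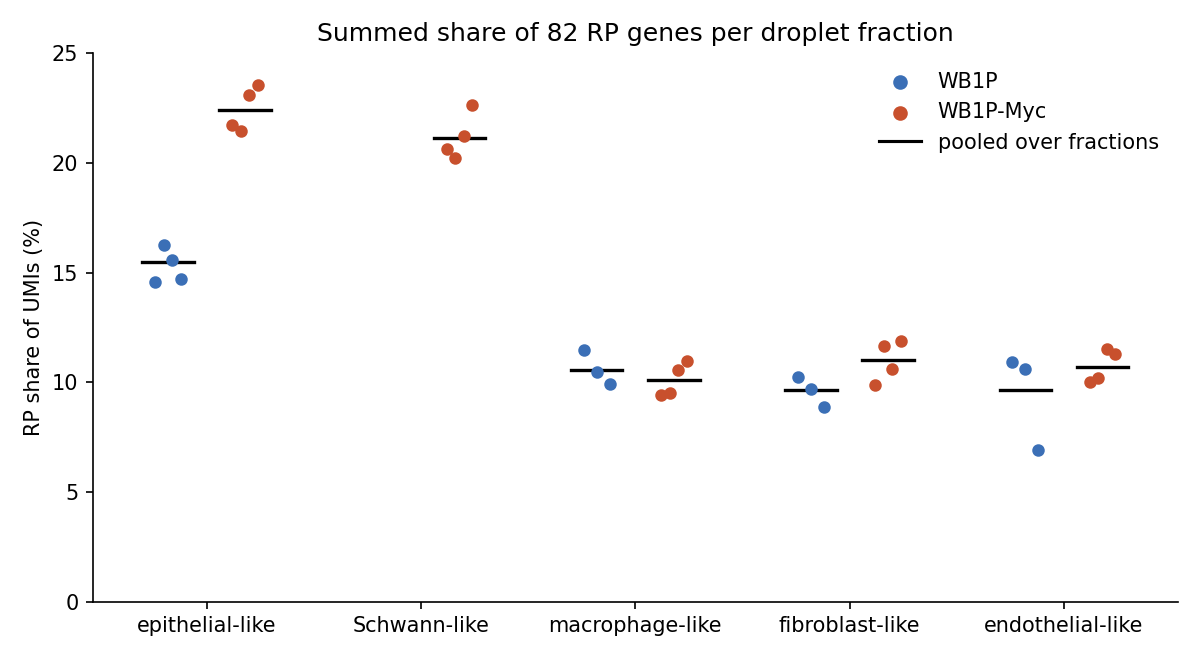
RP share of UMIs (percent, y axis) by cell class (x axis) for each droplet fraction with at least 10 cells of the class (points) and pooled over fractions (short lines), WB1P in blue and WB1P-Myc in red. The WB1P-Myc epithelial-like fractions (21.4 to 23.5%) lie above the WB1P ones (14.6 to 16.2%), while the fractions of macrophage-, fibroblast- and endothelial-like cells overlap.

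The models were apart at each depth that both held, while the pooled share was lowest in the cells with most mitochondrial UMIs. Among epithelial-like WB1P cells the share ran from 14.3% in cells under 1000 UMIs to 15.7% in cells of 4000 or more, and among WB1P-Myc cells from 21.8% in cells of 1000 to 2000 UMIs to 22.7% in those of 2000 to 4000. In cells with 8 to 20% mitochondrial UMIs it was 12.8% in WB1P and 16.6% in WB1P-Myc, although by the median over cells the lowest WB1P value was the 13.7% of cells under 2%. Malat1, a nuclear RNA, was at 20275 CPM in the WB1P and 6704 CPM in the WB1P-Myc cells of this class. With mitochondrial genes and the 50 most abundant genes outside the group, Malat1 included, taken out of the denominator, the log2 ratio of the RP share was 0.49 in place of 0.53. The 10 WB1P-Myc cells that clustered with the WB1P tumour cells had an RP share of 15.1%, at a median of 1290 UMIs and 4.82% mitochondrial UMIs. Of these cells 7 came from fraction 4 (13.3%), and the single cells of fractions 1, 2 and 3 were at 19.2, 18.6 and 11.2%.

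Single cells spread widely around these values. Thinned to 600 UMIs each, epithelial-like cells had a median RP share of 14.8% in WB1P (10th to 90th percentile 9.33 to 21.0%) and 22.3% in WB1P-Myc (16.2 to 29.0%), and without thinning the medians were 14.9% and 22.2%. The SD over cells was 4.84 and 5.16 percentage points, against 1.46 and 1.70 points from sampling 600 UMIs alone. Of the WB1P-Myc cells 94.2% lay above the WB1P median, and 7.60% of WB1P cells lay above the WB1P-Myc median. Macrophage-like cells thinned in the same way had medians of 10.0% and 9.50% (10.2% and 9.45% without thinning).

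**Figure D2:**
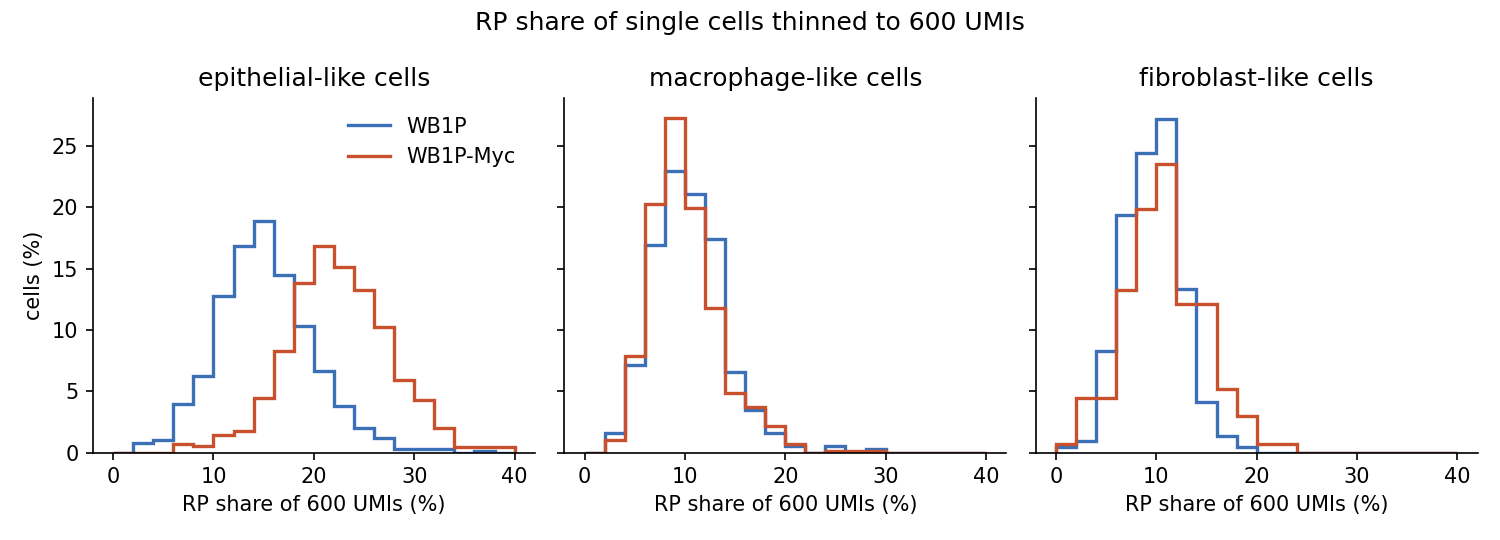
Percent of cells (y axis) by RP share of 600 UMIs (percent, x axis, bins of 2 points) for WB1P (blue) and WB1P-Myc (red) in 3 cell classes. The epithelial-like distributions are shifted, with medians of 14.8% and 22.3%, whereas those of macrophage-like cells (10.0% and 9.50%) and fibroblast-like cells (9.67% and 10.6%) lie largely on each other.

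Within WB1P-Myc, Schwann-like cells had RP shares of 20.6, 20.2, 21.2 and 22.6%, lower than epithelial-like cells of the same library in 4 of 4 fractions (log2 ratio -0.084 pooled, -0.122 to -0.056 over fractions). The gap lay in cluster 5, at 19.4%, while cluster 7, with the myelin genes Mag and Mbp, was at 22.3%. Cluster 5 cells from WB1P-Myc also had a median of 1544 UMIs and 3.92% mitochondrial UMIs, against 3907 UMIs and 2.29% in cluster 6, and the part of these in the gap was not tested. The ratio depended on the processing, at -0.00829 with a Leiden resolution of 0.6, -0.033 when clustered on all genes or with a minimum of 200 genes, and -0.15 thinned to 600 UMIs. The 16 WB1P cells placed in the class had 2.66% RP UMIs and 12.4% mitochondrial UMIs and were not compared.

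Stromal classes carried smaller RP shares, and their droplet fractions did not separate the models. Macrophage-like cells were at 11.5, 10.5 and 9.91% in the 3 WB1P fractions with enough cells and at 9.403, 9.53, 10.6 and 10.98% in WB1P-Myc (pooled log2 ratio -0.06, and -0.27 in the MiSeq tables). Fibroblast-like cells were at 10.2, 9.69 and 8.88% against 9.89, 11.7, 10.6 and 11.9% (0.20), and endothelial-like cells at 10.9, 10.6 and 6.92% against 10.0, 10.2, 11.5 and 11.3% (0.15). The fractions of both models overlapped in each of these classes, and without WB1P fraction 4 the endothelial-like ratio was -0.01. In barcodes left out for low content the RP share was 8.48% in WB1P under 200 genes (3.22% in WB1P-Myc, from 3 barcodes), and 11.6% and 12.4% at 200 genes up to the limit of 450 in WB1P and WB1P-Myc. The contribution of free RNA was not tested. Because these classes were read in the same libraries, they also give ratios within a library: epithelial-like over macrophage-like cells differed by a log2 ratio of 0.55 in WB1P (0.501 to 0.571 over fractions) and of 1.15 in WB1P-Myc (1.10 to 1.21).

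Gene by gene, a member is called higher or lower here when its pooled CPM differed by at least 0.5 on the log2 scale and the fractions of the models did not overlap, among genes with at least 50 UMIs over both models. This call is a description of 1 suspension per model and not a test. In epithelial-like cells 37 of 79 such members were higher in WB1P-Myc, 23 of the large and 14 of the small subunit, and 0 were lower. Over all genes with 50 UMIs or more, 17.5% were higher and 17.1% lower, and over the 1629 genes at 100 CPM or more 25.8% and 19.8%. The median log2 ratio was 0.47 for the members and -0.02 for all genes tested, and 68 of the 79 ratios were above 0. The group thus leaned one way, yet it did not move as a block, since single ratios ran from -0.27 (Rps27) to 2.01 (Rpl19). At a stricter log2 ratio of 1, 10 of the 79 members were called higher beside 11.6% of all genes, which is near the background.

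**Figure D3:**
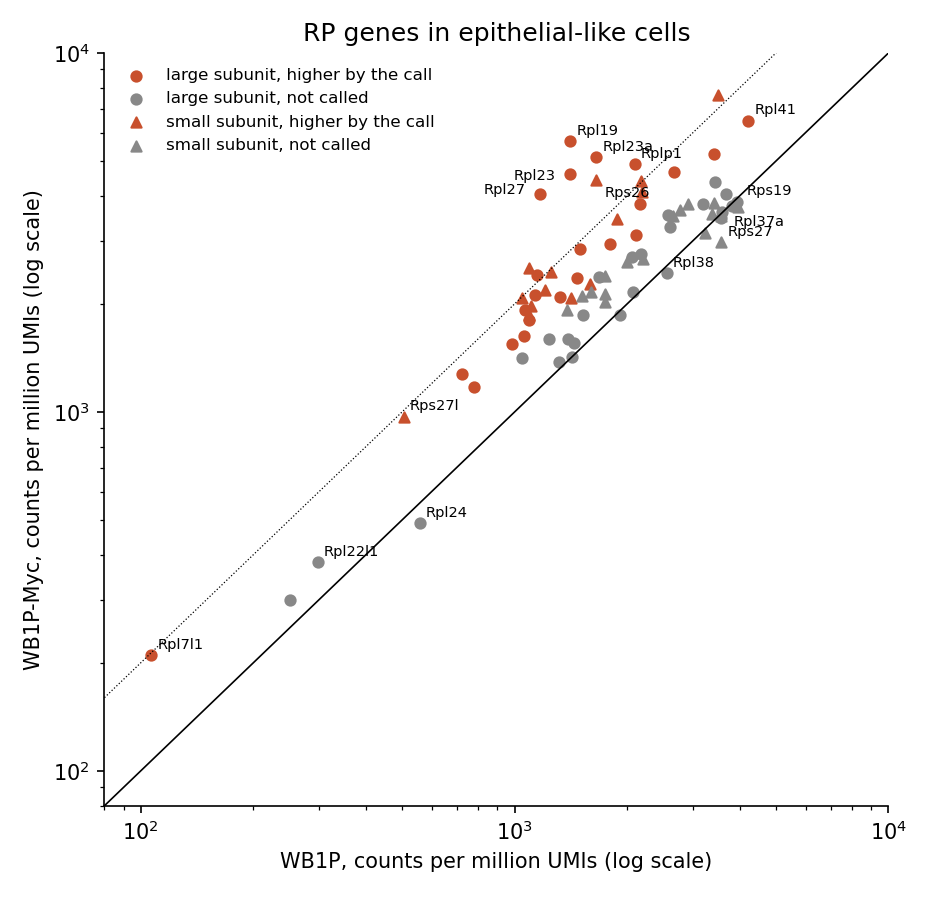
CPM of each tested RP gene in epithelial-like cells, WB1P (x axis) against WB1P-Myc (y axis), both on log scales, with circles for the large and triangles for the small subunit and red for members higher by the call. The solid line is equality and the dotted line a 2-fold difference; Rpl19, Rpl23, Rpl23a, Rpl27 and Rps26 lie highest above equality, and Rps27, Rpl24 and Rpl38 lie below it.

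The 5 highest ratios included 4 large-subunit genes. Rpl19, which reaches across to the small subunit, was at 1635, 1615, 1239 and 1290.3 CPM in WB1P and at 5833, 5334, 5720.4 and 5848 CPM in WB1P-Myc (log2 ratio 2.01, 95% counting interval 1.96 to 2.07). Its fractions were 3-fold or more apart between models and close within each. Rpl27, a further large-subunit protein, was at 605, 1166, 1255 and 1169.8 CPM against 4135, 3882, 3859 and 4346 CPM (1.80), where the low first value came from the shallow WB1P fraction. Rpl23, which lies at the subunit interface, was at 1008, 1587, 1430.2 and 1239 CPM against 4437, 4238, 4878 and 4931 CPM (1.71). Rpl23a, at the exit of the peptide tunnel, was at 1243, 1587, 1706 and 1731 CPM against 4694, 4385, 5526 and 6052 CPM (1.64). All 4 were thus well clear of overlap. Rps26, a small-subunit protein near the mRNA exit channel, was at 1456, 1822, 1557 and 1567 CPM against 4418, 4150.5, 4566 and 4543 CPM (1.42).

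The 5 lowest ratios belonged to Rps27, Rpl24, Rps19, Rpl38 and Rpl37a, and none met the call. Rps27 was at 3685, 3845, 3416 and 3382 CPM in WB1P and at 2709, 2938, 3017 and 3261 CPM in WB1P-Myc (log2 ratio -0.27, 95% counting interval -0.31 to -0.23). It was the 1 tested member whose WB1P-Myc fractions all lay below the WB1P fractions, whereas in 52 members all lay above; without the fold, 18.3% and 18.6% of all genes tested did so. Rpl24 was at 325, 302, 764 and 699 CPM against 408, 427, 544 and 601 CPM (-0.19), with wide overlap. Rps19, mutated in Diamond-Blackfan anaemia, was at 3965 and 3715 CPM pooled (-0.09). Rpl38, known for a role in translating Hox mRNAs, was at 2553 and 2441 CPM (-0.06), and Rpl37a at 3573 and 3469 CPM (-0.04). Fractions of these 3 genes overlapped between the models. The remaining members with ratios below 0 were Rpl15, Rpl32, Rpl37, Rpl9, Rps2 and Rps23.

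Members with roles of their own fell between these ends. In the stalk, Rplp1 was called higher, at 1904, 2438, 1942 and 1870.0 CPM against 4567, 4754, 5233 and 5175 CPM (log2 ratio 1.23). Its partners Rplp2 (2567 and 3546 CPM, 0.47) and Rplp0 (2600.2 and 3279 CPM, 0.33) were not, although in both all WB1P-Myc fractions lay above those of WB1P. Rplp2 did meet the call with TMM (0.58) or DESeq2 factors (0.56), without WB1P fraction 2 (0.57) and without WB1P-Myc fraction 1 (0.51). The stalk genes therefore differed from each other in the size of their ratio more than in its direction. Of the 5S rRNA partners, Rpl11 was at 963, 1319, 1101 and 1034 CPM against 2435, 2342, 2372 and 2502 CPM (1.07) and Rpl5 at 661, 1132, 1038 and 1060.0 CPM against 1639, 1544, 1600.3 and 1717 CPM (0.61). Both met the call. So did Rps6 (1248 and 2449 CPM pooled, 0.97), Rps27a, which is made as a fusion with ubiquitin (2174 and 4409 CPM, 1.02), Rpsa, a small-subunit protein also described as a laminin-binding protein (2189 and 4089.7 CPM, 0.90), Rpl10a (723 and 1275 CPM, 0.82) and Rpl41, the smallest RP (4211 and 6485 CPM, 0.62).

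Several RP genes have a paralog, and these pairs were read side by side. Rps27l, a Trp53 target in other settings, was called higher, at 347, 552, 509.9 and 469.7 CPM in WB1P and at 975, 924, 885 and 1099 CPM in WB1P-Myc (log2 ratio 0.94), opposite in sign to Rps27. Rpl22, an RNA-binding RP, was at 571, 1204, 1126 and 1139.7 CPM against 1939.9, 2056, 2238 and 2272 CPM (0.90, called), and its paralog Rpl22l1 at 78.4, 299, 320.3 and 306 CPM against 426, 315, 360.4 and 416 CPM (0.36, not called, fractions overlapping). Rpl7l1 was at 106 and 209.8 CPM (0.98, called) beside Rpl7 at 1526 and 1868 CPM (0.29, not called). The remaining paralogs were nearly silent in these cells. Rpl39l had 1 UMI in each model beside Rpl39 at 777 and 1174 CPM (0.59, called), Rps4l had 0 and 8 UMIs beside Rps4x at 1096 and 1858 CPM (0.76, called), and Rpl3l had 0 and 1 UMI beside Rpl3 at 1325 and 2094 CPM (0.66, called). Their few UMIs sat elsewhere: 15 and 35 of those of Rpl39l were in fibroblast-like cells of WB1P and WB1P-Myc, as were 28 and 36 of those of Rps4l, while Rpl3l had 10 and 6 in macrophage-like cells. By CPM, Rps4l was highest in endothelial-like cells (3 and 10 UMIs, 54.4 CPM over both models, against 41.7 CPM in fibroblast-like cells), with a UMI in 8.11 and 12.3% of these cells. Cells with an Rpl39l UMI made up 5.53 and 8.82% of fibroblast-like cells, against 0.152 and 0.112% of epithelial-like cells. With each cell thinned to 600 UMIs these shares were 1.38 and 2.57%, from 3 and 7 cells, and no epithelial-like cell held one (upper exact 95% limits 0.559 and 0.413%, for counting error only). Rpl10l was not analysed here.

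Cytosolic RP genes that the symbol pattern misses also varied. In epithelial-like cells Rpl36al (311 and 751 CPM, log2 ratio 1.27) and Gnb2l1, which encodes the small-subunit protein Rack1 (729.9 and 1560.0 CPM, 1.10), met the call. Rps3a1 (1827 and 2271 CPM, 0.31) did not. Fau, the ubiquitin-like fusion that yields Rps30, was at 3719, 2611, 2233 and 2078 CPM in WB1P and at 1807, 1726, 1846 and 1854 CPM in WB1P-Myc (-0.40), without overlap but short of the fold. Processed pseudogenes can take reads from RP genes: 208 pseudogene symbols held 2.86 UMIs per 100 RP UMIs, at 5989 CPM (WB1P) and 5895 CPM (WB1P-Myc) in tumour cells with epithelial markers, while macrophage-like cells had 4572 CPM (WB1P) and 2635 CPM (WB1P-Myc). Only symbols that begin with Rpl or Rps and carry the suffix -ps were counted, so pseudogenes under other symbols are left out. The value is a mean over the group, and the uncertainty of a single member with near-identical copies was not measured and can be larger.

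The members were next placed on the genome, a grouping chosen after their values had been seen. All 82 were found in the RefSeq table (mm10) on 19 chromosomes, 4 of them on X. In epithelial-like cells the 7 members on chromosome 11 had a median log2 ratio of 1.64, and 6 of the 7 were called higher, against a median of 0.44 and 31 of 72 on other chromosomes. These were Rpl19 (chr11:98022003-98030493), Rpl23 (chr11:97777526-97782439), Rpl23a (chr11:78180935-78183584), Rpl27 (chr11:101442245-101445596), Rpl26 (chr11:68901566-68904534, log2 ratio 0.93) and Rps27a (chr11:29545842-29548040), while Rpl38 (chr11:114667818-114672333) was at -0.06. The 4 highest ratios of the group all lay on this chromosome. The other 718 genes tested on chromosome 11 had a median of 0.56, with 39.0% called higher against 17.5% of all genes. The 134 of them at 100 CPM or more had a median of 0.79. Brca1 (chr11:101488761-101551955) and Trp53 (chr11:69580348-69591873), which Cre deletes in both models, also lie on it. On chromosome 10, 4 members had a median of 1.05 beside 0.38 for the other genes, on chromosome 4, 5 members 0.97 beside 0.28, and on chromosome 1, 3 members 0.06 beside -0.41. On chromosome 9, 7 members had a median of 0.84, with 6 called higher, beside 0.13 for the other genes, of which 17.0% were called higher. The genes within 2 Mb of these members had medians of -0.21 (Rpl14) to 0.27 (Rplp1). Other chromosomes showed little or no gap: on chromosome 15, 4 members had a median of 0.15 beside 0.15, and on chromosome 16, 2 members 0.01 beside -0.07. Copy number was not measured in these libraries.

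At a finer scale, each member was set beside the median ratio of the other tested genes within 2 Mb of it. Across the 78 members with at least 5 such genes, the ratio of the member and that of its neighbourhood were correlated in epithelial-like cells (Pearson r 0.687, Spearman rho 0.633), and still so across the 71 members outside chromosome 11 (r 0.522, rho 0.543). In macrophage-like cells of the same libraries r was 0.194 (68 members) and in fibroblast-like cells 0.243 (70 members). These are descriptions across genes, which share libraries and in part neighbours and are not independent replicates. Neighbours of Rpl23a had a median of 1.36, those of Rpl23 1.19, of Rpl19 1.17 (the windows of the last pair overlap), of Rpl26 0.83, of Rpl27 0.70, of Rps27a 0.32 and of Rpl38 -0.33. The low ratio of Rpl38 thus also came with low neighbours. Members lay above their surroundings in 73 of 78 cases, by a median of 0.50 on the log2 scale. In fibroblast-like cells this was 55 of 70 and 0.17, and in macrophage-like cells 21 of 68 and -0.10. How often other genes lay above their own neighbours was not counted, and neighbours were not matched for expression. The 0.50 was close to the gap between the medians of members (0.47) and all genes tested (-0.02) in epithelial-like cells.

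**Figure D4:**
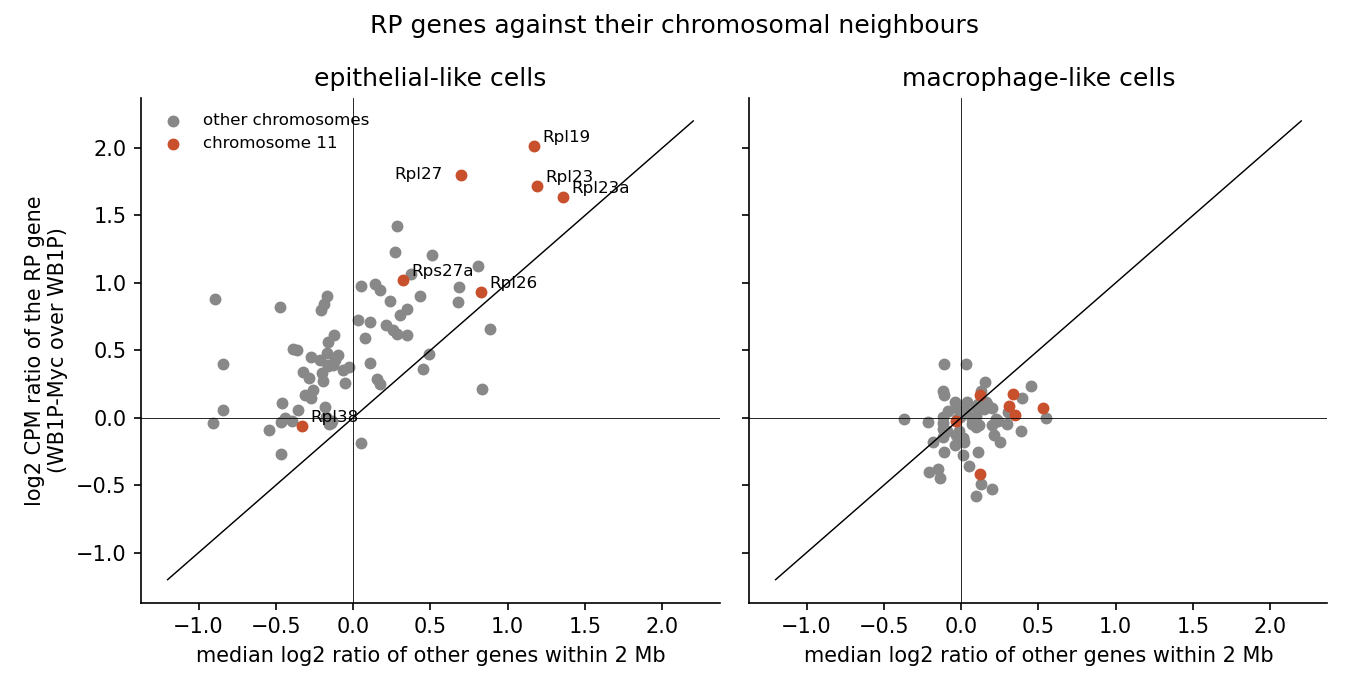
Log2 CPM ratio of each RP gene, WB1P-Myc over WB1P (y axis), against the median log2 ratio of the other tested genes within 2 Mb (x axis), in epithelial-like (left) and macrophage-like cells (right), with members on chromosome 11 in red. The diagonal is equality; in epithelial-like cells most points lie above it and rise along it (r 0.687), and in macrophage-like cells they form a cloud around 0 (r 0.194).

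In macrophage-like cells 0 of 79 members were called higher and 0 lower, where 9.88% of all genes tested were higher and 4.47% lower. The members' median was -0.02 beside 0.13 for all genes. Lower calls numbered 8 of 76 in the MiSeq run, where 5.21% of all genes were lower, 4 with TMM factors (6.40% of all genes), 3 with DESeq2 factors (6.07%) and up to 4 on leaving out a fraction (WB1P-Myc fraction 4, 5.77%). The members' median was 0.03 under 10% mitochondrial UMIs and 0.05 when clustered on 2000 variable genes. The main setting named no T or NK-like cluster, so the class may hold such cells. At resolution 0.6 a T or NK-like cluster of 15 WB1P and 43 WB1P-Myc cells stood apart. The macrophage-like cells, then 364 and 654, had a log2 ratio of the RP share of -0.11 and 2 lower calls (4.75% of all genes). The largest ratios were those of Rpl7l1 (0.40), Rpsa (0.39), Rpl7 (0.33), Rpl3 (0.27) and Rplp1 (0.24). Rpsa, for example, was at 1478, 1176 and 1124 CPM in WB1P and at 1571, 1656, 1833 and 1491 CPM in WB1P-Myc, with all WB1P-Myc fractions above but below the fold needed. At the other end stood Rpl24 (-0.58), Rpl29 (-0.53), Rpl36 (-0.49), Rps18 (-0.44) and Rpl38 (-0.42). Rpl36 was at 2422, 2095 and 2039 CPM against 1301, 1461, 1556 and 1915 CPM, and Rps18 at 2137, 2036 and 1949 CPM against 1540.2, 1328, 1412 and 1727 CPM, both apart between models and short of the fold. For Rpl24, at 219.7, 354 and 414 CPM against 194, 162, 274 and 284 CPM, the fractions overlapped. The members that led in tumour cells showed little here: Rpl19 was at 0.18, Rpl27 at 0.17, Rps26 at 0.12, Rpl23 at 0.09 and Rpl23a at 0.02.

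In fibroblast-like cells 5 of 81 members were called higher (Rpsa, Rpl5, Rpl19, Rpl27a and Rpl10a) and 0 lower, beside 5.61% and 4.22% of all genes, with a median of 0.25 against 0.06, so that the share called was near the background. Ratios above 0 numbered 69 of 81, beside 68 of 79 in epithelial-like and 33 of 79 in macrophage-like cells. The medians of all genes tested were 0.06, -0.02 and 0.13 in these classes, and the share of all genes above 0 was not counted. The member ratios come from the same UMIs as the pooled RP share (log2 ratio 0.20), whose fractions overlapped, so this count is no separate evidence. Rpsa was at 1592, 1248 and 1256 CPM in WB1P and at 2074, 2331, 2168 and 1813 CPM in WB1P-Myc (0.61). Rpl5 was at 618, 566 and 468 CPM against 745, 833, 882 and 873 CPM (0.60), Rpl19 at 1072 and 1591 CPM pooled (0.57), Rpl27a at 600.3 and 884 CPM (0.56) and Rpl10a at 521 and 752 CPM (0.53). In the MiSeq run 3 of 76 members were called higher and 3 lower, beside 1.87% and 2.97% of all genes, the log2 ratio of the RP share was 0.09, and that of Rpl10a was -0.10. Leaving out a fraction changed the HiSeq count, and it also loosens the rule on overlap. Members called higher then numbered 3 without WB1P fraction 4 (8.38% of all genes), 11 without WB1P fraction 2 (10.6%) and 9 without WB1P-Myc fraction 1 (6.77%). Rpl7l1 had the largest ratio (0.65) with overlapping fractions at 46.4 to 153 CPM. The lowest ratios were those of Rps4l (-0.35, at 48.2 and 37.7 CPM), Rpl24 (-0.27), Rpl29 (-0.27), Rpl38 (-0.23) and Rpl35 (-0.16). In endothelial-like cells, from 37 and 73 cells, 5 of 77 members were called higher (Rplp2, Rplp1, Rpl22, Rpl9 and Rpl35a), beside 4.41% of all genes higher and 4.52% lower. There the members' median was 0.17 beside 0.02 for all genes, and 59 of the 77 ratios were above 0.

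Other genes of the translation machinery were read from fixed lists in the same way. In epithelial-like cells, where 17.5% of all genes were higher and 17.1% lower, 9 of 15 TOP mRNAs that encode no RP were called higher and 1 lower (median log2 ratio 0.64), with Npm1, a nucleolar chaperone, at 1691, 1065, 941 and 1007 CPM against 4652, 4145, 4267 and 4220.3 CPM (2.06), the elongation factor Eef2 at 421 and 1009 CPM (1.26), and the initiation factor subunit Eif3h lower (-0.56). Of 16 RNA polymerase I and nucleolar assembly genes 14 were higher and 0 lower (median 1.13), but 7 of 16 when the Schwann-like cells were joined to the class (median 0.86, with 20.8% of all genes higher). Among the 14 were Dkc1, of the pseudouridylation complex, at 235, 112, 123 and 134 CPM against 625, 547, 516 and 517 CPM (2.12), Wdr12 (1.81), Fbl (1.61) and Ncl (0.90). Bop1 (28.2 and 89.6 CPM) and Ubtf (113 and 168 CPM) were not called, since their fractions overlapped. The assembly genes thus had a larger median than the RP genes (0.47), a contrast that was not tested. Of 76 mitochondrial RP genes 31 were higher and 1 lower (median 0.57), led by Mrps23 (2.73), Mrpl10 (2.36) and Mrpl34 (2.16), with Mrpl51 at -0.69. Mrps23 and Mrpl10, like Npm1, lie on chromosome 11. The 10 mitochondrial RP genes there had a median of 1.09 and the 66 elsewhere 0.54. In macrophage-like cells 3 of 15 TOP mRNAs, 3 of 12 assembly genes and 4 of 63 mitochondrial RP genes were higher and 1 mitochondrial RP gene was lower, beside 9.88% of all genes higher and 4.47% lower, so the mitochondrial count was below the background. In fibroblast-like cells these counts were 1 of 15, 1 of 12 and 3 of 51 higher, with 2 mitochondrial RP genes lower, beside 5.61% and 4.22% of all genes.

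**Figure D5:**
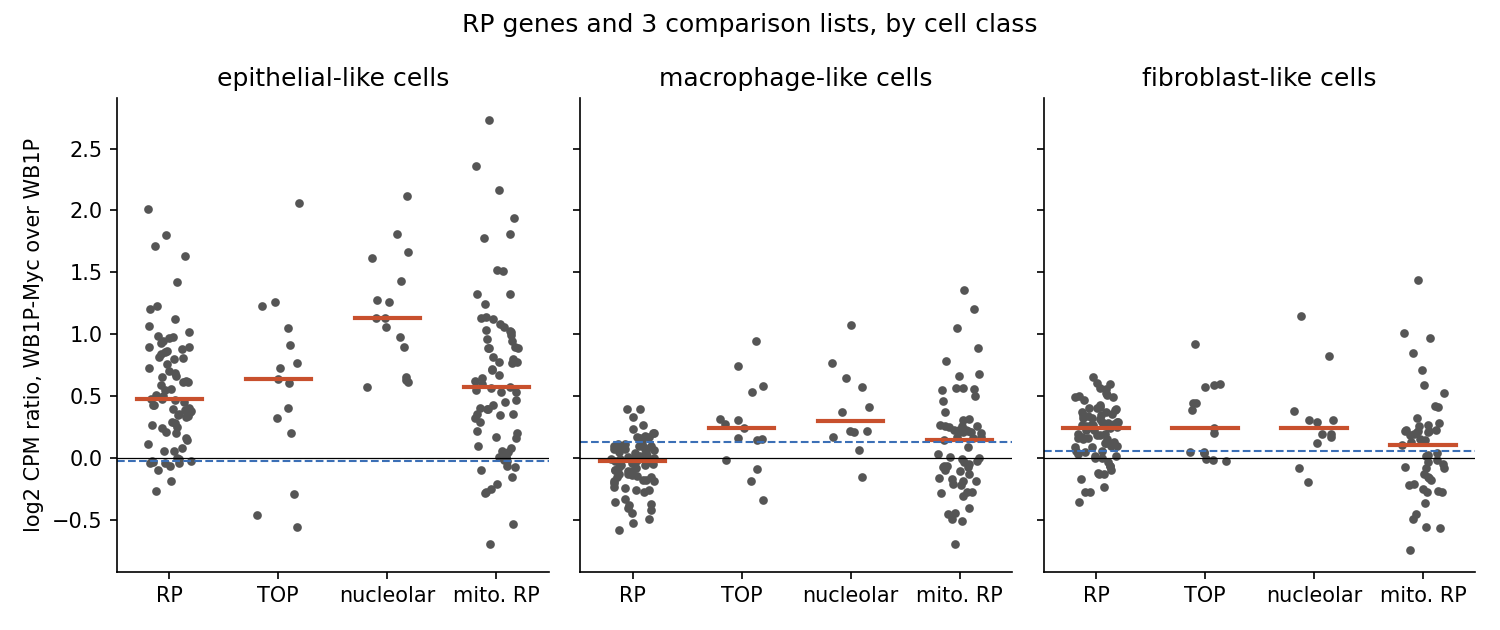
Log2 CPM ratio, WB1P-Myc over WB1P (y axis), of each tested gene (points) in 4 lists (x axis: RP, TOP mRNAs outside the ribosome, nucleolar assembly, mitochondrial RP) in 3 cell classes, with list medians as red bars and the median of all genes tested as a dashed blue line. In epithelial-like cells the medians are 0.47, 0.64, 1.13 and 0.57 against -0.02 for all genes, and in macrophage-like cells the RP median is -0.02 against 0.13.

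The proportions of the members to each other were then compared across cell classes. For the 77 members with at least 50 UMIs in each of the 5 classes, pooled over models, the share of RP UMIs taken by a member had a median range of 0.34 on the log2 scale, 62 ranged by under 0.5 and 0 by 1 or more. The widest range was that of Rpl22l1, at 0.345% of RP UMIs in fibroblast-like and 0.175% in Schwann-like cells (0.97). Rps29 followed, at 1.82% in macrophage-like and 1.00% in epithelial-like cells (0.87), then Rpl23a (0.85), Rpl15 (0.80) and Rps27l (0.79). Rpl32 (0.08), Rpl3 (0.09), Rps15 (0.11), Rps13 (0.12) and Rpl13a (0.15) were the steadiest. Pooling hides the models, and single contrasts were larger: within WB1P-Myc the proportion of Rpl23a differed by 1.02 on the log2 scale between epithelial- and macrophage-like cells and that of Rpl22l1 by 1.01 between epithelial- and fibroblast-like cells, and that of Rpl19 by 1.48 between the epithelial-like cells of the models. Rpl32 took 2.46% of RP UMIs in WB1P and 1.68% in WB1P-Myc epithelial-like cells. The median absolute log2 difference in proportion between the models was 0.32 in epithelial-like cells (79 members), 0.13 in macrophage-like and 0.14 in fibroblast-like cells, and between epithelial- and Schwann-like cells of WB1P-Myc it was 0.091. The RP proportions of WB1P and WB1P-Myc epithelial-like cells therefore lay farther apart than those of epithelial- and Schwann-like cells within WB1P-Myc. The models came from droplets made apart and the classes from the same libraries, so these distances are not alike.

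The MiSeq tables of the same fractions gave mostly other barcodes, since 16 of their 1214 kept barcodes were also kept in the HiSeq table of the same fraction. There epithelial- and Schwann-like cells had to be joined, as 2 WB1P-Myc cells clustered as epithelial-like. Their RP share was 14.4, 16.1, 15.03 and 14.7% in WB1P (236 cells) and 21.0, 20.2, 20.9 and 22.3% in WB1P-Myc (618 cells), a log2 ratio of 0.50, equal to that of the same combined class in the HiSeq run (15.4 and 21.7%, 0.50). By the same call, 33 of 79 members were higher and 0 lower for this class in the HiSeq run, beside 20.8% and 14.2% of all genes, and 40 were higher and 0 lower in the MiSeq run, beside 19.3% and 14.4%. Both sets of tables share their suspensions and do not add replicates of a model.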

How the data were processed

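For each of 4 droplet fractions per model there is a HiSeq and a MiSeq table. They hold mostly different barcodes, and cDNA preparation was repeated for each fraction. The authors deposited 16 tables of raw UMI counts per gene for 1000 barcodes each, made with dropseq-tools on the mm10 build. No source used here names the aligner, and how reads shared with pseudogenes were assigned is not known. Counts were not normalized. From the 8 HiSeq tables, barcodes with 450 to 4000 genes and under 20% mitochondrial UMIs were kept, as in the study's methods. Cells were clustered with scanpy 1.11.5 on all genes except the RP genes (10000 counts per cell, log scale, 30 principal components, 20 neighbours, Leiden resolution 0.3). Clusters were named where at least 3 fixed markers reached 10% of cells and 2-fold over the rest. Counts were summed per class and fraction and given as a share of UMIs or as CPM. Shares have exact Clopper-Pearson intervals and ratios exact conditional binomial intervals, at 95%, for counting error only. With 1 suspension per model no p-value was computed. Fractions with fewer than 10 cells of a class were not used for overlap. The scripts were tested on simulated counts.

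The members and gene lists were chosen with earlier results of these data known. Genes named are the 5 highest and 5 lowest ratios per class, the 5 widest and 5 narrowest ranges over classes, and a fixed list of stalk, 5S rRNA-binding, paralog and other members. The endothelial-like members, the list examples, the remaining members with ratios below 0 and the chromosomal grouping were chosen after their values were seen. Alternatives were other clustering inputs and limits, thinning, TMM (edgeR 4.0.16) and DESeq2 1.42.0 size factors, other thresholds, the MiSeq run and leaving out each fraction. Some genes are not reported here.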

Additional observations from a re-analysis of the deposited data

Results flagged for a closer look

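Of 48 groups of 4 fractions examined, 3 held a fraction far from the others. The single genes examined were those with the highest and lowest ratios of a class, and an outlying fraction can help make a ratio extreme. The usual chance rate of about 1 in 20 therefore does not hold for these genes, and the count was not set against chance. Rpl27 in epithelial-like WB1P cells was at 605 CPM in fraction 1 against 1166 to 1255 CPM in the rest, and this fraction holds 65 cells. Rpl37a in epithelial-like WB1P cells was at 3902 CPM in fraction 3 against 3405 to 3459.9 CPM. Rpl29 in macrophage-like WB1P-Myc cells was at 178 CPM in fraction 4 against 97.0 to 109 CPM.

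Among 63 comparisons of a single gene between cell classes, Rpl36, a large-subunit gene, went in opposite directions in every fraction. Its log2 ratio of WB1P-Myc over WB1P was 0.35 in epithelial-like cells (3434 and 4379 CPM) and -0.49 in macrophage-like cells (2169 and 1547 CPM). Only genes with the highest or lowest ratios of a class were compared, and Rpl36 was among them for its low macrophage-like ratio. The remaining RP members were not examined in this way. The difference between the classes was not tested.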

How the results depend on the processing

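No paired analysis was possible because no test was made between models, and equal fraction numbers name droplet fractions of different suspensions. The median mitochondrial percent nevertheless ranked the fractions alike, at 1.79, 2.27, 3.10 and 2.79 in WB1P and 2.14, 2.27, 2.94 and 2.72 in WB1P-Myc. Whether fractions of equal number share a processing step is not known, so the SD over fractions may hold more than random scatter. The RP share in epithelial-like cells kept its direction under each alternative run, between 0.45 (without the chromosome 11 members) and 0.57, and the share in all cells fell to 0.25 with classes given the same weight. The cells so named changed: the main WB1P-Myc epithelial-like cluster held 882 WB1P-Myc cells. It held 1362 when clustered on all genes, 1620 with a minimum of 200 genes and 338 at resolution 0.6. At resolution 0.6, clusters of 470, 262 and 231 WB1P-Myc cells stayed unnamed. The macrophage-like share was -0.27 in the MiSeq run. The Schwann-like over epithelial-like ratio was -0.033 when clustered on all genes and -0.033 with a minimum of 200 genes, -0.00829 at resolution 0.6 and -0.15 as the mean of single-cell shares or thinned. Calls in epithelial-like cells numbered 10 higher at a log2 ratio of 1.0 (11.6% of all genes), and 47 and 44 with TMM and DESeq2 factors (20.2% and 19.8% of all genes), which shift ratios by 0.11 and 0.10. Macrophage-like calls lower numbered 8 in the MiSeq run (5.21% of all genes), 4 with TMM (6.40%), 3 with DESeq2 (6.07%), 2 at resolution 0.6 (4.75%) and 1 with a minimum of 200 genes (1.76%). Fibroblast-like calls were 3 higher and 3 lower in the MiSeq run (1.87% and 2.97% of all genes) and 0 higher at a log2 ratio of 1.0 (1.77%), and Rpl10a there was -0.10 in the MiSeq run. The macrophage-like RP median was -0.02 but 0.03 under 10% mitochondrial UMIs and 0.05 on 2000 variable genes. Leaving out each fraction gave 0.51 to 0.60 for all cells, 0.50 to 0.57 for epithelial-like, -0.11 to -0.02 for macrophage-like, 0.15 to 0.24 for fibroblast-like, -0.01 to 0.27 for endothelial-like and -0.09 to -0.07 for Schwann-like over epithelial-like cells. Calls then numbered 35 to 42 higher in epithelial-like (18.1 to 22.7% of all genes), 3 to 11 higher and 0 to 1 lower in fibroblast-like (5.69 to 10.6% and 4.23 to 7.69%), and 0 to 4 lower in macrophage-like cells (4.48 to 8.07%), with 4 without WB1P-Myc fraction 4 (5.77%). Of the 219 alternative values for shares and counts, 194 moved by less than the spread between fractions (shares) or by less than 1.5 times (counts). This count is a weak check, since leaving out 1 fraction can hardly move a pooled share by that spread. For endothelial-like cells the spread was 0.38, so the change of sign to -0.01 is among the 194. The combined epithelial- and Schwann-like class, the lists without chromosome 11 or with pseudogenes, the same weights and the combined MiSeq class were added after seeing the data. The MiSeq run gave no value for epithelial-like or endothelial-like cells alone. Depth limits the rare paralogs and the endothelial-like class.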
